A study of Coilia nasus with 12 samples.

Results

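The 3 gene names eif4ebp3l, sesn1 and INSR were followed in RNA sequencing of stomach tissue from 12 Coilia nasus, an anchovy that migrates between sea and river. All unigenes (contigs assembled without a genome and read as genes) that carried one of these names in any letter case were taken, which gave 11 of 63567. The names were picked from the difference between the groups compared here, so that difference is described for them without a test. By condition, 6 fish were labelled food intake and 6 no food intake, and the protocol calls the second kind of fish controls. For neither group do the labels give an allele, agent, age, sex, fasting time or meal. Each library came from the stomach of 1 fish, with gastric mucosa named as the source.

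Insulin binds its receptor, a tyrosine kinase, and through PI3-kinase raises the membrane lipid PIP3, which brings AKT to the membrane and leads to activation of the kinase complex mTORC1. Sestrins restrain mTORC1 when leucine is scarce, and 4E-binding proteins hold the cap-binding factor eIF4E away from translation until mTORC1 phosphorylates them. In mammals and flies, transcription of the insulin receptor, sestrin and 4E-binding protein genes is raised by FOXO factors during fasting or stress.

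The values are TPM (transcript abundance per length, scaled to a fixed total in each library), so the number of reads behind each is unknown. Group values are mean ± SD with n = 6 fish, and a log2 difference is food intake minus no food intake on log2(TPM + 1), which understates the change of low unigenes. Gastric gland marker unigenes (31 unigenes, pepsinogens, acidic chitinases and the proton pump among them) summed to 108900 to 372300 TPM with food intake and 58300 to 367900 TPM without, and none of the 31 was at 0 in all libraries. Smooth muscle markers (43 unigenes) summed to 2905 to 6884 and 1565 to 26810 TPM, and intestinal markers (30 unigenes) to 107.7 to 538.4 and 319.5 to 959.8 TPM. In food intake 6, rRNA-like unigenes made up 64.2% of all TPM, while the remaining 11 libraries had 4.34% to 26.9%; such a share lowers every other TPM value of that fish. Unigenes matching chicken mitochondria were present in 3 fish with food intake (1, 5 and 6) and 4 without (1, 2, 4 and 6), called the first library set here, and listed at 0 in the second set of 5 libraries. The labels name no batch. Over all 40142 unigenes tested (those reaching 1 TPM in no fewer than 6 libraries), 0% differed between the groups at adjusted p under 0.05 by limma, with 2.48% higher and 3.79% lower at unadjusted p under 0.05.

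Of the 11 unigenes, 6 passed the filter on low values, and all 6 of these had a log2 difference below 0, where 54% of all tested unigenes did. None of the 6 had groups that did not overlap (0.142% of all tested unigenes lay wholly lower with food intake and 0.0249% wholly higher). The names were picked from this difference, so the count of 6 below 0 is not evidence about them. The other 5 unigenes stood at means of 0.2 to 2.12 TPM in either group, 3 of them lower and 2 higher with food intake. For 10 of the 11 the best protein match in the deposited annotation was a fish protein, in most cases of the Atlantic herring Clupea harengus, and the remaining one had none.

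**Figure D1:**
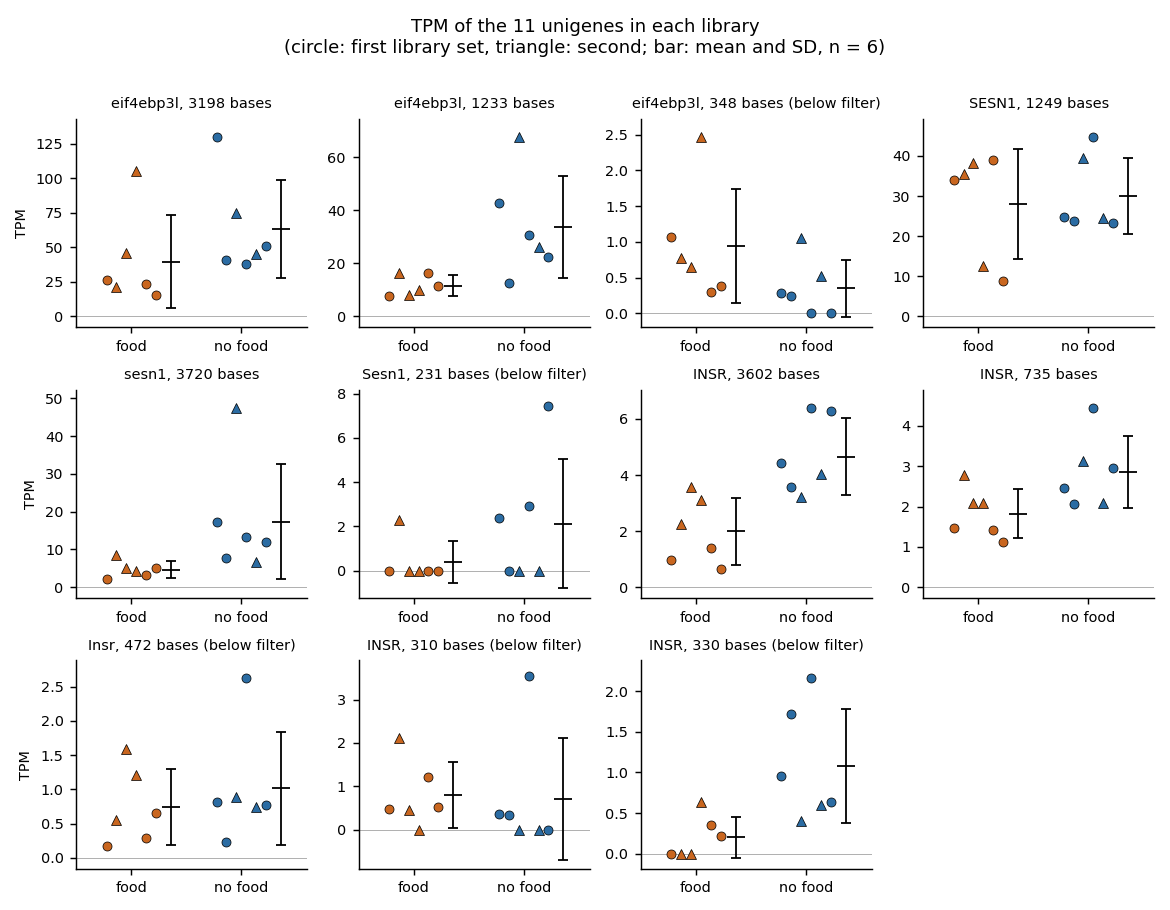
TPM of each of the 11 unigenes in the 6 food intake and 6 no food intake libraries, 1 panel per unigene with its own axis, with the mean and SD of each group as a bar. The groups overlap in every panel, with little overlap in eif4ebp3l of 1233 bases, where 1 no food intake fish at 12.7 TPM lies within the food intake range, and in INSR of 3602 bases, where 5 food intake fish lie below all others.

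The insulin receptor was the least abundant of the 3 names. Its main unigene, INSR of 3602 bases (TRINITY_DN34141_c0_g1, which carries the tyrosine kinase domain), had a lowest, median and highest value of 0.64, 1.83 and 3.59 TPM with food intake and 3.20, 4.23 and 6.4 TPM without. The 5 lowest food intake fish lay below every no food intake fish, and only food intake 3, at 3.59 TPM, reached into the range of the other group. The means were 1.99 ± 1.19 and 4.65 ± 1.37 TPM, a log2 difference of -0.98 (SE 0.31). The difference was -1.62 in the first library set and -0.22 in the second, where no food intake is held by 2 fish.

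The second INSR unigene, of 735 bases (TRINITY_DN31487_c2_g5, also with a tyrosine kinase domain, best match insulin receptor a of zebrafish), had values from 1.12 through a median of 1.77 to 2.77 TPM with food intake. Without food intake they ran from 2.06 through 2.71 to 4.45 TPM. The means were 1.83 ± 0.602 and 2.86 ± 0.893 TPM (log2 difference -0.45, SE 0.26), and 3 food intake fish lay within the range of the other group. The remaining INSR unigenes did not reach the filter. The unigene of 330 bases (TRINITY_DN31487_c2_g7) had 0.2 ± 0.256 TPM with food intake, with 3 fish at 0, and 1.08 ± 0.705 TPM without, and the one of 472 bases (TRINITY_DN28653_c0_g1) had 0.743 ± 0.550 against 1.02 ± 0.820 TPM. The one of 310 bases (TRINITY_DN31487_c2_g8, with a fibronectin type III domain) went the other way in its means, at 0.797 ± 0.757 against 0.71 ± 1.40 TPM, with 3.55 TPM in no food intake 4 and 0 to 0.37 TPM in the other fish of that group. The unigenes of 735, 310 and 330 bases come from the same assembly component, so reads of a single transcript may have been divided among them. That component also gave a 772-base unigene named IGF1R, a related receptor. Whether reads were shared between the receptors was not tested.

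Summed over its 5 unigenes, INSR stood at 5.56 ± 2.20 TPM with food intake and 10.3 ± 4.5 TPM without. The receptor's 3602-base unigene made up 33.6 ± 9.93% of that sum with food intake and 47.1 ± 9.04% without. The share of the short unigenes in the sum was thus higher with food intake in the mean, with overlapping fish.

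The sestrin-1 unigenes differed in how far the groups stood apart. The more abundant one, SESN1 of 1249 bases (TRINITY_DN32914_c1_g1), had a lowest, median and highest value of 8.79, 34.8 and 39.0 TPM with food intake and 23.2, 24.7 and 44.7 TPM without. With food intake 4 fish stood close together at 34.0 to 39.0 TPM, above 4 of the no food intake fish, while food intake 4 and 6 were the lowest of all 12 at 12.6 and 8.79 TPM. The mean was 28.0 ± 13.6 against 30.1 ± 9.44 TPM, and its log2 difference of -0.24 (SE 0.40) turned to 0.03 without food intake 6. The medians of the groups were in the opposite order to the means.

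The longer one, sesn1 of 3720 bases (TRINITY_DN34010_c0_g1), had values from 2.17 through 4.63 to 8.40 TPM with food intake and from 6.67 through 12.6 to 47.5 TPM without. Only food intake 2, at 8.40 TPM, stood above any no food intake fish, and it did so over no food intake 2 and 5. The means were 4.68 ± 2.15 and 17.4 ± 15.2 TPM, the log2 difference was -1.47 (SE 0.41), and it was -1.62 and -1.52 in the library sets. Without no food intake 3, the fish at 47.5 TPM, the log2 difference was -1.13. Both sestrin-1 unigenes have the same best match, sestrin-1 of the herring, and both carry the sestrin family domain.

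The make-up of the name was set beside this. The 3720-base unigene held 17.5 ± 11.6% of sesn1 TPM with food intake and 31.5 ± 13.0% without, and the 1249-base one 81.7 ± 11.9% and 63.9 ± 13.7%. The third, Sesn1 of 231 bases (TRINITY_DN17016_c0_g1), was above 0 in 1 food intake fish at 2.29 TPM and in 3 no food intake fish at 2.38 to 7.43 TPM, and its best match was a sestrin-3-like protein. Summed, sesn1 stood at 33.1 ± 14.2 TPM with food intake and 49.6 ± 21.2 TPM without.

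**Figure D2:**
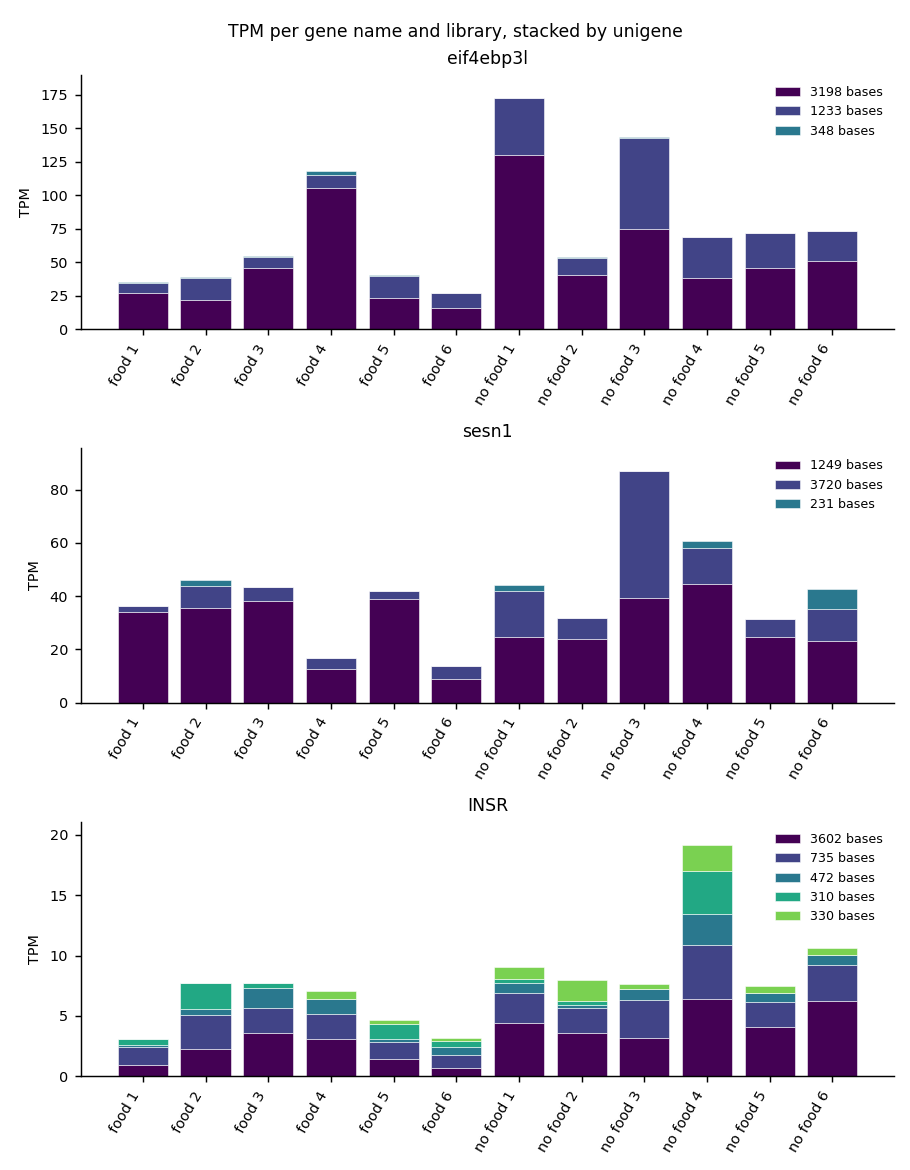
TPM summed by gene name in each library, 1 panel per name, with each bar divided by unigene. The 3720-base sesn1 portion is 2.17 to 8.40 TPM in the food intake bars and reaches 47.5 TPM in no food intake 3, and as a share of its bar it runs from 6% to 36.3% with food intake and from 21.3% to 54.6% without.

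The translational repressor eif4ebp3l had the highest single unigene of the set. Named after a zebrafish gene, it belongs to the 4E-binding proteins, and its 3198-base unigene (TRINITY_DN33358_c0_g2) had a lowest, median and highest value of 15.4, 25 and 105 TPM with food intake. Without food intake the values were 37.9, 48.0 and 129.9 TPM. In this unigene 4 food intake fish lay below all no food intake fish, food intake 3 at 45.8 TPM lay among them, and food intake 4 at 105 TPM exceeded all but no food intake 1. The means were 39.7 ± 33.8 and 63.2 ± 35.2 TPM and the log2 difference was -0.83 (SE 0.45), with -1.37 in the first library set and -0.30 in the second.

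The 1233-base unigene (TRINITY_DN31882_c2_g2) had a narrow range with food intake. Its values ran from 7.80 through 10.6 to 16.4 TPM with food intake and from 12.7 through 28.5 to 67.6 TPM without. No food intake 2, at 12.7 TPM, was the only fish of its group inside the food intake range, and the SD was 3.88 TPM around a mean of 11.6 TPM with food intake against 19.3 TPM around 33.7 TPM without. The log2 difference was -1.33 (SE 0.37), and -1.06 and -1.85 in the library sets. Both unigenes carry the 4E-binding protein domain, with best matches in herring and zebrafish.

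The 348-base eif4ebp3l unigene (TRINITY_DN14956_c0_g1) has no best match and was named from a protein database entry of zebrafish. It was the other unigene higher with food intake, at 0.94 ± 0.799 against 0.35 ± 0.395 TPM, with food intake 4 again on top at 2.47 TPM. Summed, the name stood at 52.3 ± 33.3 TPM with food intake and 97.3 ± 48.5 TPM without, of which the 3198-base unigene was 69.9 ± 14.9% and 65.1 ± 10.1%. In these whole-tissue samples, fewer cells of a type and less RNA per cell cannot be told apart for any of the 3 names.

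By mean TPM over all 12 libraries the order was eif4ebp3l of 3198 bases (51.5), SESN1 of 1249 bases (29.1), eif4ebp3l of 1233 bases (22.7), sesn1 of 3720 bases (11), INSR of 3602 bases (3.32) and INSR of 735 bases (2.34). Neighbours in that order overlapped in their ranges in every case, and the first exceeded the second in 8 of 12 libraries, as did the second the third. The steps from the 1233-base eif4ebp3l unigene to the 3720-base sesn1 unigene, and from the latter to the 3602-base INSR unigene, were each kept in 12 of 12 libraries.

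**Figure D3:**
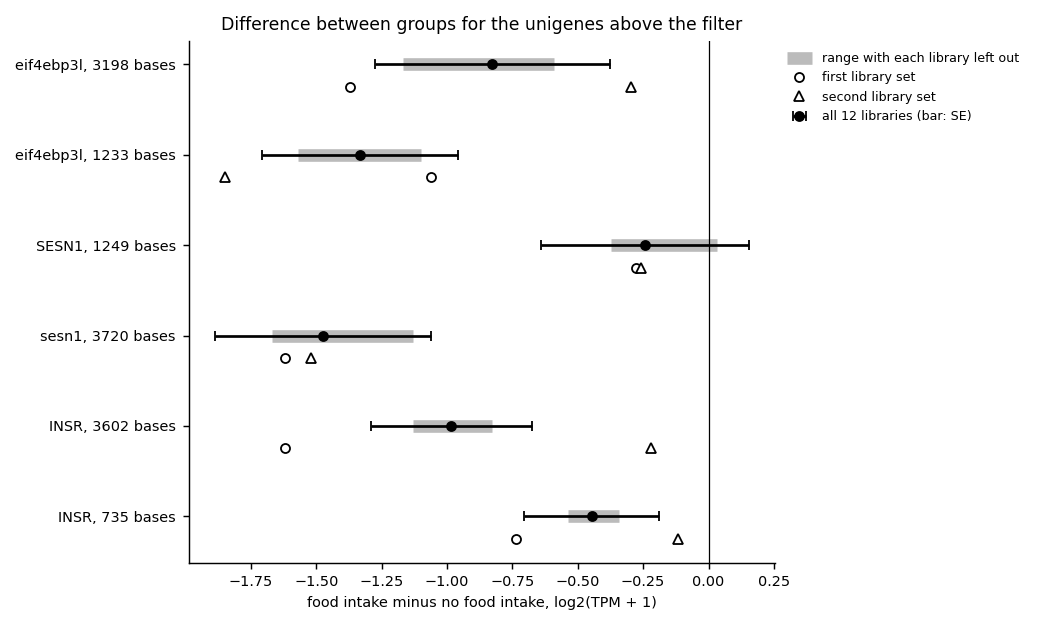
Log2 difference between the groups (food intake minus no food intake, log2(TPM + 1)) for the 6 unigenes above the filter, with SE bars, the range with each library left out in turn, and the value within each library set. All 6 points lie below 0, the leave-one-out range of SESN1 crosses 0, and INSR of 3602 bases stands at -1.62 in the first set and -0.22 in the second.

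Within the library sets, all 6 unigenes were lower with food intake in both, as were 25.2% of all tested unigenes. The sets divide the same 12 libraries from which the names were picked, so this count is not separate evidence. The difference between the sets at equal feeding passed adjusted p under 0.05 for 0 of the 6, and for 1.96% of all tested unigenes. The rRNA-like share of food intake 6 bears on the values too. When the TPM of each library was rescaled without the rRNA-like unigenes, the values of that fish became 43.3 TPM for eif4ebp3l of 3198 bases, 31.9 TPM for eif4ebp3l of 1233 bases and 24.8 TPM for SESN1 of 1249 bases. It was then the highest food intake fish for eif4ebp3l of 1233 bases and for sesn1 of 3720 bases, at 14.1 TPM. The log2 differences after rescaling were -0.68 and -1.20 for the eif4ebp3l unigenes, -0.10 and -1.36 for the sesn1 unigenes, and -0.96 and -0.37 for the INSR unigenes, the most abundant of each name first. Rescaling moved the median over all tested unigenes from -0.04 to 0.06.

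Whether the names varied together from fish to fish was asked after each group's mean was removed, since the group difference had served to pick them. Between the most abundant unigenes of each name, none of the 3 pairs passed, with p-values adjusted over a family of 6. For eif4ebp3l and INSR Pearson's r over 12 libraries was 0.461 and Spearman's rho 0.399 (two-sided permutation within groups, p = 0.196 and 0.255, adjusted 0.391 and 0.509), with r of 0.756 among food intake fish and -0.282 among the others. It was 0.402 without food intake 4 and no food intake 1, the fish farthest out in eif4ebp3l, and -0.0498 and 0.4 in the library sets. It fell to 0.277 without food intake 4, 0.228 on sums by name, 0.23 after rescaling and 0.119 with group by library set means removed. Of all tested unigenes, 10.9% had an r at least this high with the 3198-base eif4ebp3l unigene.

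For sesn1 and INSR r was 0.241 and rho 0.224 (permutation p = 0.53 and 0.543, adjusted 0.637 and 0.815). Without food intake 4 and 6 r was 0.13, and it was 0.636 in the first set and -0.28 in the second, of 5 libraries. For eif4ebp3l and sesn1 r was -0.119 and rho -0.0699 (permutation p = 0.789 and 0.85, adjusted 0.789 and 0.851). Without food intake 4 and no food intake 1 it was 0.555, and it was 0.157 and -0.648 in the library sets. After quantile normalization it was -0.667 (adjusted permutation p = 0.062). The sign of r of sesn1 with INSR changed after rescaling without rRNA-like unigenes, to -0.112.

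Pairs of all 6 unigenes were also computed, 15 in number, within a family of 36 added after the data had been seen, over which p was adjusted. The adjusted permutation p of r was under 0.05 for 0 of the 15, 13 had an r above 0, and the range was -0.142 to 0.757 with a median of 0.241. Of all tested unigenes, 55.5% had an r of at least 0.241 with the 1249-base SESN1 unigene. With the 3198-base eif4ebp3l unigene, 34% had an r of at least 0.239. The share of all unigenes with an r above 0 was not computed, so the count of 13 is no result about these names. The 3198-base and 1233-base eif4ebp3l unigenes had r of 0.151 and rho of -0.0839 with each other, and the 1249-base and 3720-base sesn1 unigenes 0.162 and 0.119 (adjusted permutation p of r 0.805 for each pair). The 1233-base eif4ebp3l unigene had its highest r, 0.757, with the 3720-base sesn1 unigene (permutation p = 0.0166, adjusted 0.164; rho 0.657), which was 0.55 without no food intake 3 and 0.492 without no food intake 2 and 3. In the library sets that r was 0.781 and 0.924. The INSR unigenes of 3602 and 735 bases had r = 0.699 and rho = 0.741 (adjusted permutation p 0.164 and 0.278), with 0.814 in the first set and -0.886 in the second.

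**Figure D4:**
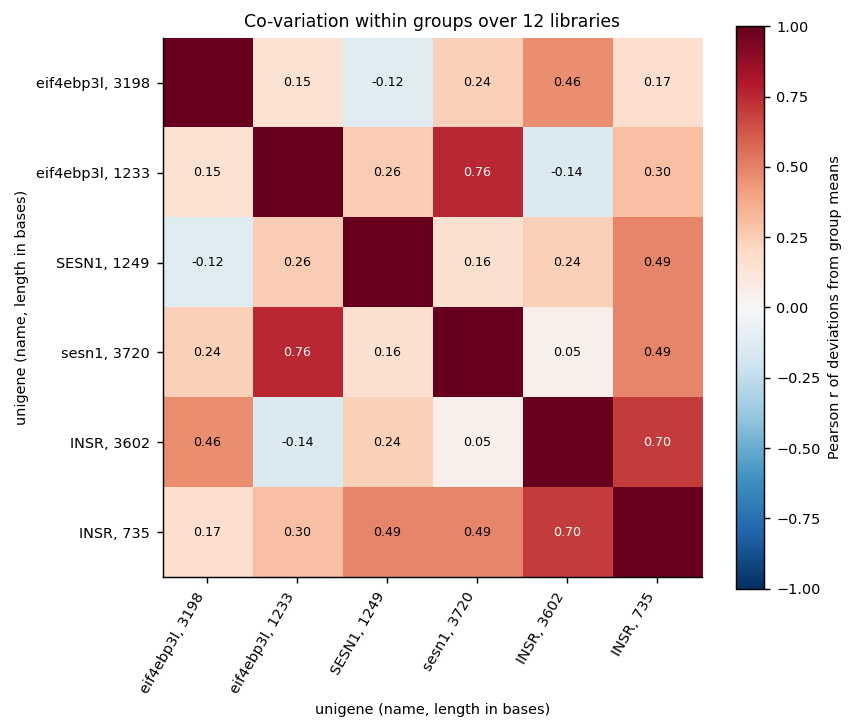
Pearson's r of log2(TPM + 1) between the 6 unigenes above the filter, over 12 libraries after removing each group's mean, as a symmetric grid with red for positive and blue for negative values. The darkest squares off the diagonal are eif4ebp3l of 1233 bases with sesn1 of 3720 bases (0.757) and the INSR unigenes with each other (0.699).

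Tissue make-up and RNA make-up were set against the most abundant unigene of each name in 15 relations, after removal of group means and with p adjusted over a family of 20. None passed adjustment (smallest adjusted permutation p 0.152) and 3 had an unadjusted p under 0.05, all with the receptor. INSR had r of -0.752 with the fibroblast and matrix markers (permutation p = 0.0166; rho -0.727), -0.647 with the rRNA-like share (permutation p = 0.0232; rho -0.615) and 0.585 with the gastric gland markers (permutation p = 0.0303; rho 0.462). Without the 2 libraries farthest out these became -0.727, -0.301 and 0.282, so the latter 2 rest on those libraries. With group by library set means removed they were -0.374, -0.492 and 0.392. Between the rRNA-like share and eif4ebp3l r was -0.497, and with sesn1 it was -0.484. TPM has a fixed total, so a larger rRNA-like share lowers the other values, and a negative r with it is in part built in. The share of all unigenes with such an r is not given here. The part of these markers and of the rRNA-like share in the group values was not tested.

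Across 9200 gene names, the unigenes whose deviations were most like each of the 3 were found by Pearson's r over the 12 libraries, as a description. For eif4ebp3l of 3198 bases these were Caprin1 (r 0.902), METTL5 (0.90) and Fhl1 (0.897). For SESN1 of 1249 bases they were NAGPA (0.957), SRI (0.955) and ABHD4 (0.953). For INSR of 3602 bases they were ch25h (0.952), Lzts2 (0.937) and Bcor (0.935). Each is the top of a long ranking, so high values are part of how they were found. All were computed on TPM not rescaled for the rRNA-like share, which was 64.2% in food intake 6. That fish and food intake 4 were the farthest out in SESN1. The part of this share in these r was not tested.

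A relative of eif4ebp3l in the table was EIF4EBP2, another 4E-binding protein, named here as 1 of the most abundant of its list. Its 1341-base unigene (TRINITY_DN32481_c2_g4) had 20.8 to 68.6 TPM with food intake and 39.6 to 77.3 TPM without, with the highest food intake value again in fish 4. The means were 33.3 ± 18.1 and 55.9 ± 16.5 TPM and the log2 difference was -0.81 (SE 0.35), which did not pass over all unigenes (limma adjusted p = 0.774). Within groups it had an r of 0.894 with the 3198-base eif4ebp3l unigene (permutation p = 0.00169; rho 0.692, p = 0.0232) and 0.184 with the 1233-base one, a comparison chosen after the values were seen. The other tested EIF4EBP2 unigene, of 2472 bases (TRINITY_DN28331_c0_g3), had 6.36 ± 2.08 against 6.05 ± 2.23 TPM (log2 difference 0.06), and its r with the eif4ebp3l unigenes was 0.573 (permutation p = 0.0669) and 0.39 (permutation p = 0.233).

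The other genes of the pathway gave the setting. Lists of 306 gene symbols by role found 320 unigenes, of which 248 were tested, and 0 passed adjusted p under 0.05 in either direction. At unadjusted p under 0.05, 15 were higher with food intake (6.05%, against 2.48% of all tested unigenes) and 10 lower (4.03%, against 3.79%). After rescaling without the rRNA-like unigenes 24 were higher and 7 lower, where 5.66% and 2.54% of all tested unigenes were. The median log2 difference of the 248 was 0.00, beside -0.04 over all tested unigenes, and 122 lay above and 126 below 0. Members singled out below for an unadjusted p of 0.01 to 0.05, with their log2 difference in brackets, were named after their values were seen unless they are among the 3 most abundant of their list.

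The insulin and IGF list (7 tested, median -0.07) had 0 higher and 1 lower at unadjusted p under 0.05, the latter a 212-base unigene of the receptor IGF1R (-1.05). That short unigene had 0.705 ± 0.83 against 2.75 ± 1.93 TPM. The other tested IGF1R unigene, of 772 bases, went the other way at 1.57 ± 0.676 against 1.1 ± 0.666 TPM (0.30). The most abundant members of the list were Igfbp7, a secreted binding protein, at 39.3 ± 27.8 against 32.5 ± 21.1 TPM, IGFBP4 at 4.25 ± 1.91 against 6.22 ± 4.15 TPM, and the growth factor igf2 at 4.68 ± 1.83 against 4.91 ± 1.28 TPM. Of the 23 receptor adaptors and inhibitors (median 0.00), 1 was higher (SOCS3, which damps cytokine signalling, 1.22) and 1 lower. That SOCS3 unigene had 8.85 ± 14.4 against 1.62 ± 0.902 TPM, with a highest food intake value of 38.1 TPM. Another SOCS3 unigene, of 646 bases, had 1.78 ± 0.633 against 2.09 ± 1.51 TPM (-0.07). The lower one was SOCS2, which damps growth hormone signalling, at 4.94 ± 2.02 against 9.13 ± 2.80 TPM (log2 difference -0.79; limma adjusted p = 0.774). ENPP1, an inhibitor of the insulin receptor in mammals, had 14.0 ± 4.49 against 12.5 ± 5.44 TPM, and GRB14, an adaptor that inhibits it, 5.69 ± 3.52 against 8.26 ± 3.17 TPM.

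No unigene passed unadjusted p under 0.05 among 14 of PI3-kinase subunits (median -0.03) or among 17 of phosphatases that act on phosphoinositides or on AKT (median 0.07). Of the latter, 7 were of inositol lipid phosphatases and 10 of protein phosphatase 2A subunits. Neither median had a steady sign, at 0.50 for the kinase subunits in the second library set and -0.21 for the phosphatases over the most abundant unigene of each name. The catalytic subunit PIK3CB had 14.2 ± 2.98 against 16.3 ± 4.76 TPM, Pik3c2a 16.5 ± 7.25 against 13.3 ± 4.82 TPM and Pik3c3 5.82 ± 2.21 against 7.72 ± 3.24 TPM. INPP5D, which removes a phosphate from PIP3, was at 87.9 ± 31.1 against 83.4 ± 38.8 TPM, with a log2 difference of 0.20. PPP2CA, the catalytic subunit of protein phosphatase 2A, was at 19.4 ± 7.39 against 21.0 ± 4.20 TPM and its regulatory subunit PPP2R5A at 13.6 ± 2.71 against 20.8 ± 9.88 TPM. In the list of AKT, PDK1, SGK and GSK3 kinases (9 tested, median 0.33), none passed unadjusted p under 0.05, and sgk1 had 9.96 ± 4.56 against 6.24 ± 2.59 TPM, SGK2 5.55 ± 2.97 against 3.63 ± 0.971 TPM and SGK3 3.84 ± 1.25 against 4.53 ± 1.30 TPM. The largest log2 difference of the list, 0.87, was of a 488-base Gsk3b unigene. A 256-base GSK3B unigene had 0.58 and Gsk3a 0.10, while AKT1, Akt2 and PDPK1 had 0.08, 0.17 and 0.33.

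The list of the TSC complex, its target RHEB (the mTORC1 activator that the complex switches off) and the ddit4 genes had 8 of 10 tested unigenes below 0 (median -0.25, or -0.12 without food intake 6). Its median was -0.49 in the first library set and -0.06 in the second. At unadjusted p under 0.05, 1 was higher (ddit4l, a relative of ddit4, 1.46) and 0 lower. The 6 unigenes of complex subunits (TSC1, TSC2 and tbc1d7) all had log2 differences below 0, none of them at unadjusted p under 0.05. Several of the 6 share a gene name, so they are not 6 separate genes, and 54% of all tested unigenes lay below 0. TSC2 stood at 6.96 ± 2.12 against 11.5 ± 6.95 TPM, tbc1d7, another subunit of the complex, at 6.22 ± 2.43 against 9.62 ± 3.34 TPM, and ddit4, which activates it under stress, at 6.20 ± 3.86 against 9.39 ± 10.2 TPM. In the mTOR complexes (17 tested, median -0.06) 3 were higher and 0 lower. DEPTOR, a subunit that inhibits mTOR, had 5.98 ± 2.79 against 2.72 ± 2.33 TPM (log2 difference 0.91; limma adjusted p = 0.784), a second Deptor unigene, of 1922 bases, had 0.98, and a 215-base unigene of RICTOR, a subunit of the second mTOR complex, had 1.05. A further Deptor unigene, of 581 bases, had -0.04. The other tested RICTOR unigenes, of 202, 1421 and 2026 bases, had -0.11, -0.18 and 0.40. The kinase Mtor itself had 5.32 ± 1.96 against 6.14 ± 0.986 TPM, and AKT1S1, another inhibitory subunit, 22.3 ± 14.4 against 30.6 ± 11.3 TPM.

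Of the 36 unigenes of amino acid sensing at the lysosome (median -0.04), 1 was higher (the small GTPase SAR1B, 1.1) and 0 lower. Among them wdr24 had 67.0 ± 55.3 against 75.0 ± 64.4 TPM, and the anchors LAMTOR3 and LAMTOR1 had 33.5 ± 21.8 against 25.4 ± 7.21 and 26.2 ± 9.60 against 25.9 ± 6.5 TPM. In the AMPK list (13 tested, median -0.24) none passed unadjusted p under 0.05, with PRKAB1 at 11.7 ± 3.37 against 11.9 ± 4.37 TPM, PRKAG3 at 7.25 ± 4.52 against 12.2 ± 10.1 TPM and CAB39 at 8.14 ± 4.77 against 4.82 ± 1.72 TPM. The AMPK median was 0.16 at a minimum of 5 TPM, -0.03 in the first library set and -0.05 without no food intake 4. The best match of PRKAB1 was a duck protein.

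The cap-binding and S6 kinase arm, on which the 4E-binding proteins act, had 6 higher and 4 lower of 57 tested (median 0.08). EIF4G2, a relative of the scaffold eIF4G that does not bind eIF4E, had a 944-base unigene at 8.06 to 89.4 TPM with food intake and 6.84 to 27.9 TPM without. The means were 46.2 ± 30.6 and 11.6 ± 8.17 TPM, with a log2 difference of 1.72 (limma adjusted p = 0.768), and all 6 food intake fish lay above the no food intake median. EIF4G2 unigenes of 425 and 606 bases (1.42 and 1.23) were also among the 6 higher, so these are not 6 separate genes. The longest EIF4G2 unigene, of 3011 bases, had 10.2 ± 3.88 against 7.63 ± 1.74 TPM (0.335) and was not among them. The rest of the higher ones were EIF4E (5 ± 4.2 against 1.19 ± 0.785 TPM, 1.18), EIF4A1 of 3513 bases (1.17) and Mknk1 (0.96). An EIF4A1 unigene of 1209 bases had -0.31. The ribosomal protein rps6 had 833 ± 521 against 1460 ± 413 TPM (log2 difference -1.0) and the 1616-base unigene of the elongation factor EEF2 841 ± 400 against 1520 ± 523 TPM (-0.95). The next most abundant EEF2 unigene, of 2770 bases, had 560 ± 340 against 642 ± 344 TPM (-0.21). The log2 differences of rps6 and of the 1616-base EEF2 unigene were small under quantile normalization, at -0.27 and -0.16, and in the second library set, at -0.09 and -0.01.

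FOXO factors and fasting-type targets (20 tested, median -0.24) had 0 higher and 4 lower at unadjusted p under 0.05. That is 20% lower, where 3.79% of all tested unigenes were, in a list chosen with earlier results of these data known. The 4 lower unigenes were all of target genes. The only tested unigene of a FOXO factor was Foxo3 of 535 bases, with a FOXO6-like best match. It had 1.76 ± 1 against 1.99 ± 1.22 TPM (log2 difference -0.10). The list median was -0.04 in the second library set, -0.37 in the first, -0.48 at a minimum of 5 TPM and -0.53 over the most abundant unigene of each name. TXNIP, a protein that limits glucose uptake, ran from 46.0 to 193 TPM with food intake and from 85.5 to 247 TPM without. All 6 food intake fish lay below the no food intake median, food intake 4 the highest of them, and the means were 81.7 ± 55.8 and 181 ± 65.6 TPM (log2 difference -1.24; limma adjusted p = 0.768). The other 3 were the ubiquitin ligase FBXO32 (-1.14), the gluconeogenic enzyme PCK1 (-0.93) and the mitophagy receptor BNIP3 (-0.82). FBXO32 and PCK1 were low, at 0.76 ± 0.607 against 3.9 ± 4.4 TPM and 1.8 ± 1.61 against 3.99 ± 2.07 TPM. BNIP3 had 12 ± 4.73 against 21.9 ± 8.72 TPM, and a second BNIP3 unigene, of 215 bases, had a log2 difference of 0.03. Among the most abundant of the list, the antioxidant enzyme SOD2 had 42.4 ± 21.5 against 33.9 ± 6.54 TPM and the autophagy protein GABARAPL1 17.1 ± 5.09 against 23.9 ± 5.29 TPM.

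The amino acid response list had 18 of 25 tested unigenes above 0 (median 0.25), with 3 higher and 0 lower at unadjusted p under 0.05. The 3 were chac1 and the amino acid enzymes CTH (1.0) and PHGDH (0.87). In the list 28% lay below 0, where 54% of all tested unigenes did. At unadjusted p under 0.05, 12% were higher, where 2.48% of all tested unigenes were. This list, like the others, was chosen with earlier results of these data known. The 25 unigenes carry 18 gene names, so they are not 25 separate genes. Nor is the list of amino acid shortage alone, as it held the related kinases EIF2AK1, EIF2AK2 and EIF2AK3, which answer to other stresses. The amino acid sensor EIF2AK4 had a log2 difference of -0.01 and EIF2AK1 -0.02. Unigenes of EIF2AK2 had 0.09 and 0.20, and those of EIF2AK3 0.82, 0.43 and 0.35. Leaving out food intake 6 gave a list median of 0.44, and leaving out no food intake 2 gave 0.18. Its largest difference was in chac1, an enzyme that degrades glutathione and a target of ATF4, at 3.54 to 145 TPM with food intake and 3.10 to 36.6 TPM without. Food intake 6 was at 3.54 TPM and the other 5 food intake fish were above all no food intake fish, and the means of 77.7 ± 57.1 and 12 ± 12.5 TPM gave a log2 difference of 2.38 (limma adjusted p = 0.768). The most abundant unigenes of the transcription factors atf4 and CEBPB had 124 ± 38.2 against 133 ± 33.8 TPM and 13.2 ± 10.2 against 21.3 ± 22.7 TPM. A second atf4 unigene, of 2595 bases, went the other way, at 50 ± 17.2 against 35.8 ± 11.5 TPM (log2 difference 0.41).

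**Figure D5:**
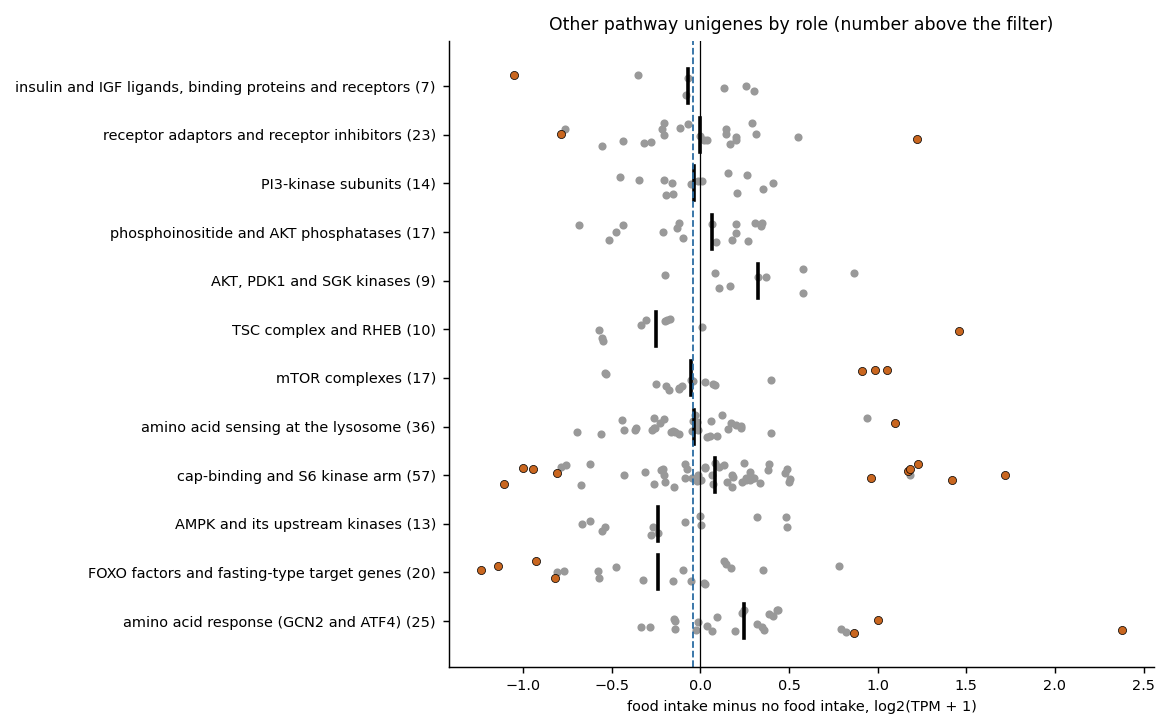
Log2 difference (food intake minus no food intake, log2(TPM + 1)) of the 248 other pathway unigenes tested, by role, with list medians as black bars and the median of all tested unigenes as a dashed line at -0.04. Orange points have unadjusted p under 0.05; they lie below 0 in the FOXO list and above 0 in the amino acid response list, and none passed adjustment.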

How the data were processed

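Total RNA of 12 stomachs (6 fish labelled food intake, 6 no food intake) was extracted with TRIzol and read as paired ends on the HiSeq platform, per the labels' protocols. Per the submitters' processing notes cutadapt and FastQC were used, with no versions. Identifiers in the expression table are those of the Trinity assembler. The unit of the deposited values is not named in the header and was taken to be TPM, as the column totals lay between 984119 and 992092. How the authors quantified or filtered unigenes was not given in the sources used here. Each of the 12 columns matched 1 sample title, with 0 left over.

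From these TPM, limma 3.58.1 (trend in the prior variance, group as the term) was run on log2(TPM + 1) over the 40142 unigenes reaching 1 TPM in no fewer than 6 libraries, with Benjamini and Hochberg adjustment and a threshold of 0.05. Computing was in R 4.3.3 (package data.table, version 1.17.8) and figures in Python 3.11.15 with matplotlib 3.10.9. The procedure was tested on simulated data, with independent normal noise and large changes planted only among the least variable unigenes. That setting is easier than these data, so it does not show which changes were missed here. The p-values measure the spread between individual fish. Co-variation used deviations from group means, with 100000 permutations of libraries within groups. Lists were matched by gene symbol in any letter case. A suffix a or b after a hyphen was ignored, and other fish suffixes matched only where the list spelled them out. The rRNA-like unigenes had a mean of at least 1000 TPM and an r of at least 0.95 with the unigene named ART2. The library sets come from 9 chicken-matched mitochondrial unigenes, not from the labels.

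Named were all 11 unigenes, the 3 most abundant tested genes of each pathway list, any list member with unadjusted p under 0.01, and the 3 gene names most alike each most abundant unigene. Other unigenes of genes named in the lists, and further members of the list with AKT and of the amino acid response list, were added after the values were seen. The gene names, the lists and the tests were chosen with earlier results of these data known. Alternatives were a pseudocount of 0.1, a minimum of 5 TPM or none, quantile normalization, limma with no trend, sums by name, rescaling without rRNA-like unigenes, library sets as a term or alone, a replicate block and each library left out; pathway unigenes with a fish best match alone and the family of 36 pairs were added after seeing the data. Sequences of the unigenes were not used here. A gene name that met the rule for the set, a pathway list and single members of other lists are not reported here, although the families over which p was adjusted still held their pairs and relations.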

Additional observations from a re-analysis of the deposited data

Results flagged for a closer look

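In groups of 6 fish, 8 of the 28 sets of values examined (11 unigenes and 3 sums by name, in each group) held a fish whose gap to the next, divided by the group's whole range, exceeded Dixon's critical value. For normally distributed values chance alone marks about 1 in 20 such groups. The values here were TPM without a log, for which that rate was not tested, and the sets share fish and unigenes. Food intake 4 stood apart in eif4ebp3l of 3198 bases at 105.43 TPM (next 45.82), in eif4ebp3l of 348 bases at 2.47 TPM (next 1.07) and in the eif4ebp3l sum at 117.81 TPM (next 54.53). No food intake 4 stood apart in Insr of 472 bases at 2.62 TPM (next 0.89), in INSR of 310 bases at 3.55 TPM (next 0.37) and in the INSR sum at 19.18 TPM (next 10.64). No food intake 3 did so in sesn1 of 3720 bases at 47.51 TPM (next 17.17). Food intake 2 did so in the short Sesn1 unigene of 231 bases at 2.29 TPM (all others 0), where the gap is the whole range by construction. The log2 difference of the 3198-base eif4ebp3l unigene was -1.17 without food intake 4.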

How the results depend on the processing

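TPM keeps no depth, so the number of reads behind the unigenes below the filter is unknown, and the second library set has 2 no food intake fish. Of the 6 log2 differences between groups, SESN1 of 1249 bases changed sign when a library was left out (0.03 without food intake 6). Relations with sesn1 had no steady sign. With eif4ebp3l, r was -0.667 after quantile normalization (adjusted permutation p = 0.062), -0.521 after rescaling without rRNA-like unigenes, 0.113 on sums by name and -0.61 to 0.314 with a library left out. With INSR it was -0.345 after quantile normalization, -0.112 after rescaling without rRNA-like unigenes and -0.219 to 0.511 with a library left out. The r of eif4ebp3l with INSR was 0.119 to 0.577 under another pseudocount, quantile normalization, rescaling, removal of set means, sums by name and each library left out (0.277 to 0.577 for the last). Among medians of pathway lists, those of insulin and IGF and of the mTOR complexes became 0.25 and -0.39 at a minimum of 5 TPM, and the latter 0.31 in the second set alone. Calls over all unigenes by limma at adjusted p were 1 higher and 1 lower after quantile normalization, 1 higher after rescaling, and 0 to 1 higher with a library left out (1 without no food intake 4), against 0 and 0. The 15 pathway unigenes higher at unadjusted p became 8 at a minimum of 5 TPM, 24 after rescaling, 1 in the first set alone and 8 to 31 with a library left out. The 10 lower became 0 in the second set alone and 5 to 16 with a library left out; the cause of these changes was not tested.

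No pairing of the fish by replicate number was seen. Same-numbered fish had correlations of deviations of -0.102 to 0.108, and for 0 of the 6 numbers was the same-numbered fish the best match. With 6 numbers, a weak pairing could go unseen. With the replicate block, 0 unigenes passed adjusted p in either direction.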
